A study of Mus musculus with 6 samples.

Results

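The Rhox genes are a family of homeobox genes that lie side by side on the mouse X chromosome. The members were taken as every row of the expression table whose symbol is Rhox followed by a number, which gave 28 genes of 19489. RNA was sequenced from 6 libraries of mouse embryonic stem cells (ESCs) grown with LIF and serum. OE ESCs carried a vector that drives the Dppa3 coding sequence from the CAG promoter, and Con ESCs carried the empty vector. The study's methods describe selection with puromycin and both stable and transient OE ESCs. They do not state which kind, or which ESC line, was sequenced. There were 3 OE and 3 Con libraries, and 1 of each, called OE-D7 and Con-D7 here, carries a D7 label that no source explains. The other 4 libraries are numbered 1 and 2 in each genotype and are called libraries 1 and 2. The labels give the Con cells as wild type and the OE cells as Dppa3 overexpressing, and the study's methods speak in general of independent experiments for each condition. Neither source says which culture each library came from, or whether each genotype was 1 clone, so that the p-values below measure the spread between these libraries. Whether a change in a transcript means more cells that express it or more RNA in each cell cannot be told apart in bulk RNA.

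The family is named for its expression in reproductive tissues, the testis, the epididymis, the ovary and the placenta. It is a textbook case of a cluster that DNA methylation keeps silent in the embryo proper, and several members are released when DNA methyltransferases are lost. Dppa3, also called Stella or PGC7, is a maternal factor that holds Uhrf1, the partner of the maintenance methyltransferase Dnmt1, away from chromatin. By number the members fall into a sub-cluster alpha of Rhox1 to Rhox4 with 20 rows, a sub-cluster beta of Rhox5 to Rhox9 with 5 rows, and a sub-cluster gamma of Rhox10, Rhox12 and Rhox13 with 3 rows. Rhox13 was counted with the third group by its number alone. Rhox2, Rhox3 and Rhox4 are present as 8, 3 and 8 related copies in the table, each with its own letter. The rows run from Rhox1 at X:37213804 to the end of Rhox13, all on the same stretch of the X chromosome in build GRCm38.p6.

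Because methylation acts on CG dinucleotides, the stretch around the start of each gene is shown for the members that the results turn on. A promoter window of 250 bases before to 50 after the start, from RefSeq on GRCm38.p6, was matched for 22 of the 28 members, and for none of Rhox2f, Rhox4d, Rhox6, Rhox7a, Rhox8 and Rhox9. The windows are Rhox1 chrX:37222209-37222508 (minus strand, 0 CG), Rhox2a chrX:37244742-37245041 (plus strand, 8 CG) and Rhox4b chrX:37432244-37432543 (plus strand, 10 CG). The others are Rhox4e chrX:37557162-37557461 (plus strand, 10 CG), Rhox5 chrX:37754358-37754657 (plus strand, 5 CG), Rhox10 chrX:38066225-38066524 (plus strand, 9 CG) and Rhox13 chrX:38120590-38120889 (plus strand, 5 CG). Each is written 5′ to 3′ on the strand of its gene, with every CG in capitals.
Rhox1: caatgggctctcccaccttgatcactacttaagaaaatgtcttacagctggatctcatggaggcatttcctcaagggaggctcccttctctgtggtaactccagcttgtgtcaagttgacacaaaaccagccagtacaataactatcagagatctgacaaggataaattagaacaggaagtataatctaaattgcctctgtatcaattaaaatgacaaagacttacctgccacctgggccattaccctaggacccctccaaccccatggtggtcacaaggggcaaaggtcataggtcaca
Rhox2a: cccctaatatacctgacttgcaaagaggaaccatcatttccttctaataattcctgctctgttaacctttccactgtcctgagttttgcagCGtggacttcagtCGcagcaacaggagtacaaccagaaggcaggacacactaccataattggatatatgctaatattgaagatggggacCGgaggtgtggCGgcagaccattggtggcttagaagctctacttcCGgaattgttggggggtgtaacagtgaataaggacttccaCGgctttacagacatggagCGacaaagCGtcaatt
Rhox4b: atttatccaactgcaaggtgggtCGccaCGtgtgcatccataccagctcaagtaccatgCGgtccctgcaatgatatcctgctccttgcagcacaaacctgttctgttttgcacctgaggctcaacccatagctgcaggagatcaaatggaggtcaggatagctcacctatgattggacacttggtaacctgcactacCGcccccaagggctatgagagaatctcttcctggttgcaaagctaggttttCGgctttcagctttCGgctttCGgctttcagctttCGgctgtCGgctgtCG
Rhox4e: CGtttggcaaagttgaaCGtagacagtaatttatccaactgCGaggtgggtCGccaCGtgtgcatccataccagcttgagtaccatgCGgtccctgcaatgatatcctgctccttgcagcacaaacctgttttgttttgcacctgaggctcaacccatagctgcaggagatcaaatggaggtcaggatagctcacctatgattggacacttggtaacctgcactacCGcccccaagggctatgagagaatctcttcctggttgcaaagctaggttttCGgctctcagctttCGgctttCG
Rhox5: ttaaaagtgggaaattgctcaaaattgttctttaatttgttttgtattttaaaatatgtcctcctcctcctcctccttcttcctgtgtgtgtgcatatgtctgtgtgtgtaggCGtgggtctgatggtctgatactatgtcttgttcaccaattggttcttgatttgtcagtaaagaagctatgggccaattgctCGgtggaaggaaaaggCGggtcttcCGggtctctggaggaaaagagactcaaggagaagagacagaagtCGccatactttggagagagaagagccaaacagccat
Rhox10: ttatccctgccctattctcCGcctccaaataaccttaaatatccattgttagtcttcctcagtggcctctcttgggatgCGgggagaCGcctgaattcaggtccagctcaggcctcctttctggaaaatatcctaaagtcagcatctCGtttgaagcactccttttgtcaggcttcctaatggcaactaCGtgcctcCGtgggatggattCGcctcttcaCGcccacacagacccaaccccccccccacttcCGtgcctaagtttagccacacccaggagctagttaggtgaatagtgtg
Rhox13: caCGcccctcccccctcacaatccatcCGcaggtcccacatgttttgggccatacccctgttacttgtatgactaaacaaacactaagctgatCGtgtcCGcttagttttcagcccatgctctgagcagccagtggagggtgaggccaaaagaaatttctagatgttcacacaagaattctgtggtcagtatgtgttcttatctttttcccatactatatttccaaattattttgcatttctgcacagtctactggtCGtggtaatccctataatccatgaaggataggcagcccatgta
The Rhox1 window held no CG, while the 7 Rhox4 copies with a window held 10 to 12 and the 7 Rhox2 copies 5 to 9. The median was 8 over the members and 7 over all 32851 promoters of the RefSeq set. The Rhox4 windows end in a run of the unit TTTCGGC, visible at the end of Rhox4b and Rhox4e above, which was searched on both strands after the run had been seen. It occurred 2 to 10 times in each of the 7 Rhox4 windows and in no other member, and 1.15% of all promoters hold it at least once. The E-box CACGTG, also searched on both strands and, like that unit, holding a CG, occurred in 5 Rhox4 windows, Rhox4a2, Rhox4b, Rhox4e, Rhox4f and Rhox4g, and in 7.15% of all promoters. Pairwise identity of the windows was 65.7% to 95% among Rhox4 copies, against 45.1% to 55.7% between members of different number.

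The copies also share most of their transcripts, which bears on how reads were divided among them. Of all stretches of 50 bases in the annotated transcripts (GENCODE vM21), 70.7% to 98.3% of a Rhox4 copy and 44.7% to 100% of a Rhox2 copy occurred in another gene too. Levels of single copies are therefore uncertain, and summed copies are given beside them. For Rhox1, Rhox5, Rhox10, Rhox12 and Rhox13 the share was 0%, for Rhox6 it was 16.5% and for Rhox9 6.28%, both shared between these 2 genes. Rhox7a shared 58.8%, mainly with Rhox7b.

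Libraries held 17408954 to 18176939 estimated counts, and the family took 1502 to 5192 of them. Levels are given as FPKM, which sets the reads of a gene against its length and the depth of its library. Dppa3, the transgene's own gene, stood at 279 and 279 FPKM in OE libraries 1 and 2 and 131 FPKM in OE-D7, against 6.09 and 3.89 FPKM in Con libraries 1 and 2 and 26.2 FPKM in Con-D7. The groups did not overlap, and Dppa3 in Con-D7 was above both other Con libraries. ESC markers were present in every library, with a summed level of 3667 to 4354 FPKM in OE and 3768 to 4536 FPKM in Con. Dppa5a alone stood at 2268 FPKM in OE-D7 and 2083 FPKM in Con-D7, so that the sum does not show how each marker moved.

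Rhox5, formerly Pem, a homeobox gene of ESCs, trophoblast and Sertoli cells, was by far the highest member. It stood at 79.8 and 119 FPKM in OE libraries 1 and 2 and 145 FPKM in OE-D7, against 66.2 and 76.7 FPKM in Con libraries 1 and 2 and 92.7 FPKM in Con-D7. OE was higher in each of the 3 pairs, and OE library 2 was above Con-D7. Rhox5 made up 40.6% of the family's summed FPKM in OE-D7 and 53.3% in Con-D7, against 61.1% to 67.8% in libraries 1 and 2. In all, 18 members reached 1 FPKM in at least 1 library, and 9 were above 0 in all 6. The other 10, which are Rhox2c to Rhox2h, the Rhox3 copies and Rhox4f, stayed at 0.58 FPKM and 7.65 counts or less in every library. Over the 4 libraries without the D7 label 9 members had a mean of at least 0.5 FPKM and were tested, and 14 did so over all 6.

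**Figure D1:**
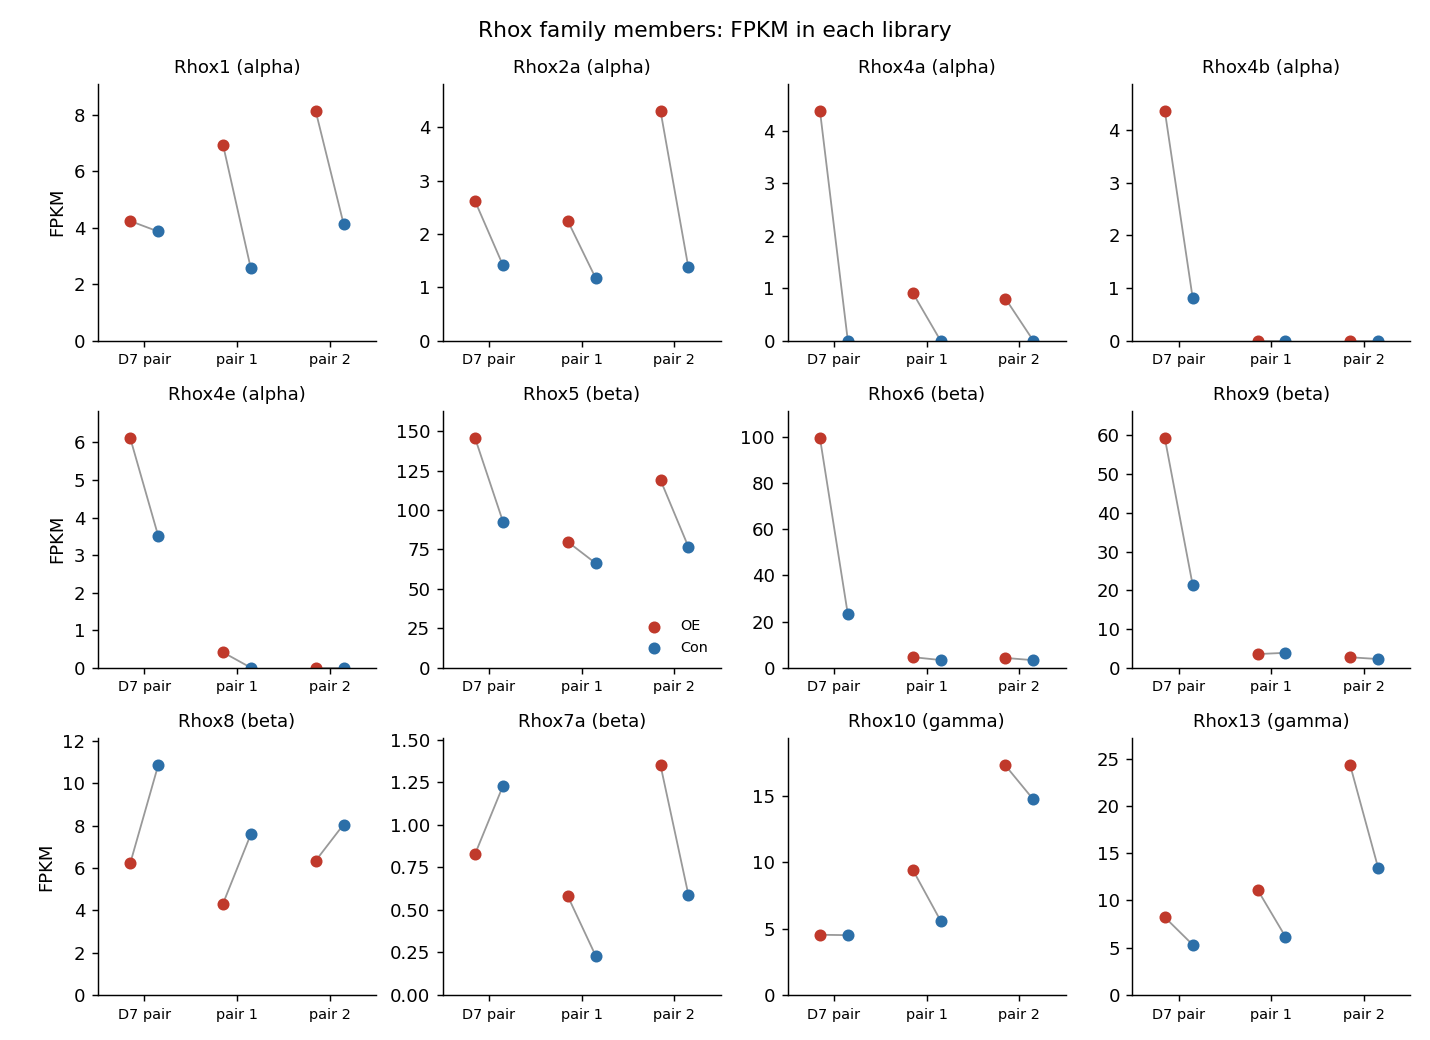
FPKM (vertical axis, from 0, a scale for each gene) of 12 members in each library, with OE (red) left of Con (blue) and a grey line joining the libraries of the same number. Rhox6 and Rhox9 reached 99.3 and 59.2 FPKM in OE-D7, against at most 4.58 and 3.84 FPKM in libraries 1 and 2, while Rhox10 and Rhox13 were highest in pair 2.

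The first question was whether the family was higher in OE than in Con ESCs without the D7 label. Alpha showed the widest gap. Its summed level was 12.4 and 16.7 FPKM in OE libraries 1 and 2, against 4.59 and 6.46 FPKM in Con libraries 1 and 2. Both OE libraries were above both Con libraries, 2.70-fold in pair 1 and 2.58-fold in pair 2. Beta summed to 92.8 and 134 FPKM in OE and 81.2 and 90.8 FPKM in Con, which is 1.14-fold and 1.47-fold by pair. Gamma summed to 20.6 and 41.6 FPKM in OE and 11.8 and 28.2 FPKM in Con, so that the groups overlapped although OE was higher in both pairs, by 1.74-fold and 1.48-fold. These sums carry no test.

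Without a term for the library number, no gene of 13494 passed an adjusted p of 0.05 (0%; edgeR quasi-likelihood, Benjamini-Hochberg), and so none of the 9 members tested did. At an unadjusted p under 0.05, 58 genes were higher and 4 lower, and DESeq2 called 2 genes and limma 0. Libraries of the same number deviated together, so the number was also fitted as a block, which leaves 1 residual degree of freedom. In that fit 103 genes were higher in OE (0.763%) and 17 lower (0.126%), and 2 of the 9 members were among the higher ones, Rhox1 and Rhox13. Of the 503 other X-linked genes tested, 32 were higher (6.36%) and 1 lower in the same fit, a share also above that of all genes, and the part of the chromosome in the members' calls was not tested. With the same block neither DESeq2 nor limma called a member. The median log2 fold change was 0.41 over the 9 members and 0.00 over all genes tested, and 8 of the 9 were above 0.

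Rhox1, a member transcribed in the testis, stood at 6.95 and 8.14 FPKM in OE libraries 1 and 2, against 2.56 and 4.15 FPKM in Con libraries 1 and 2. Both OE libraries were above both Con libraries. Rhox1 rose in the blocked fit with a log2 fold change of 1.16 (standard error, SE, 0.249, adjusted p = 0.0313), and without the block it was 1.15 (SE 0.374, adjusted p = 1). The adjusted p of Rhox1 with the block was 1 by DESeq2 and 0.127 by limma. In the D7 pair Rhox1 stood at 4.24 FPKM in OE-D7 and 3.87 FPKM in Con-D7, and the 95% binomial counting interval of the ratio of counts, 0.746 to 1.61, included 1.

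Rhox13, a member whose protein is found in male germ cells, stood at 11.1 and 24.3 FPKM in OE libraries 1 and 2, against 6.17 and 13.5 FPKM in Con libraries 1 and 2. The groups overlapped, since OE library 1 was below Con library 2, but OE was 1.80-fold higher in each of the 2 pairs. The D7 pair had 8.21 FPKM in OE-D7 and 5.31 FPKM in Con-D7, a ratio of 1.55 with a counting interval of 1.22 to 1.97. Rhox13 rose in the blocked fit with a log2 fold change of 0.81 (SE 0.141, adjusted p = 0.00652), against 0.81 (SE 0.527, adjusted p = 1) without the block, where it lay at 0.19 without OE library 2 and at 1.41 without Con library 2. With the block the adjusted p of Rhox13 was 0.424 by DESeq2 and 0.127 by limma. Over all 6 libraries Rhox13 did not pass, with a log2 fold change of 0.74 and an adjusted p of 0.135 with the block.

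The remaining members did not pass this comparison one by one. Rhox2a, a testis member, stood at 2.24 and 4.30 FPKM in OE libraries 1 and 2, against 1.17 and 1.37 FPKM in Con libraries 1 and 2, with a blocked log2 fold change of 1.23 (SE 0.360, adjusted p = 0.186). The groups did not overlap. Rhox2b had 0.51 and 1.08 FPKM in OE, against 0.16 and 0 FPKM in Con, and was too low to test. When the counts of the 8 Rhox2 copies were summed into 1 row before the fit, the row had 48 and 94 counts in OE libraries 1 and 2, against 23 and 21 in Con libraries 1 and 2. That sum rose in the blocked fit by 1.62 on the log2 scale (SE 0.332, adjusted p = 0.0248), and did not pass without the block (1.65, adjusted p = 1). The D7 pair had 58 summed Rhox2 counts in OE-D7 and 38 in Con-D7. Over all 6 libraries the summed Rhox2 row did not pass in edgeR with the block (1.24, SE 0.317, adjusted p = 0.354).

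Rhox5 had a blocked log2 fold change of 0.41 (SE 0.102, adjusted p = 0.0756) and did not pass. The ratio of OE to Con counts was 1.2 in pair 1, 1.55 in pair 2 and 1.57 in the D7 pair, each with a counting interval above 1, from 1.10 to 1.31 in the first of them. Rhox10, which acts in spermatogonia, stood at 9.44 and 17.3 FPKM in OE libraries 1 and 2, against 5.60 and 14.7 FPKM in Con libraries 1 and 2. The groups overlapped, and the blocked log2 fold change of Rhox10 was 0.41 with an adjusted p of 0.621. Rhox6 was at 4.58 and 4.23 FPKM in OE libraries 1 and 2, against 3.32 and 3.25 FPKM in Con libraries 1 and 2, and Rhox9 at 3.52 and 2.69 FPKM in OE, against 3.84 and 2.24 FPKM in Con. Neither passed, with adjusted p of 0.816 for Rhox6 and 0.995 for Rhox9 with the block.

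Rhox8, formerly Tox, known from Sertoli and granulosa cells, was the one member above 1 FPKM in every library that was lower in OE in all 3 pairs. It stood at 4.31 and 6.34 FPKM in OE libraries 1 and 2 and 6.23 FPKM in OE-D7, against 7.59 and 8.05 FPKM in Con libraries 1 and 2 and 10.8 FPKM in Con-D7. All OE libraries were below all Con libraries. The count ratio was 0.567, 0.788 and 0.573 in pairs 1, 2 and D7, with every counting interval below 1, the nearest bound being 0.995 in pair 2. Rhox8 did not pass the test over libraries 1 and 2 (log2 fold change -0.61, SE 0.198, adjusted p = 0.252 with the block) nor over all 6 (-0.70, adjusted p = 0.283 with the block). Rhox7a had 0.58 and 1.35 FPKM in OE libraries 1 and 2, against 0.23 and 0.59 FPKM in Con libraries 1 and 2, and its blocked adjusted p was 0.571.

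Among the 9 members tested over libraries 1 and 2, the FPKM of OE and Con did not overlap upward for 4, Rhox1, Rhox2a, Rhox5 and Rhox6, and downward for 1, Rhox8. Over all genes tested the same held for 11% upward and 4.61% downward. Over all 28 members, low ones included, 10 had both OE libraries above both Con libraries and 2 had both below, against 10.8% and 4.93% of all rows of the table. Within single pairs OE was the higher library for 17 of the 28 members in pair 1, 18 in pair 2 and 21 in the D7 pair, against 54.2%, 52.6% and 52.1% of all rows. It was the lower library for 5, 4 and 5 members, against 36.3%, 39.7% and 42.4% of all rows.

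**Figure D2:**
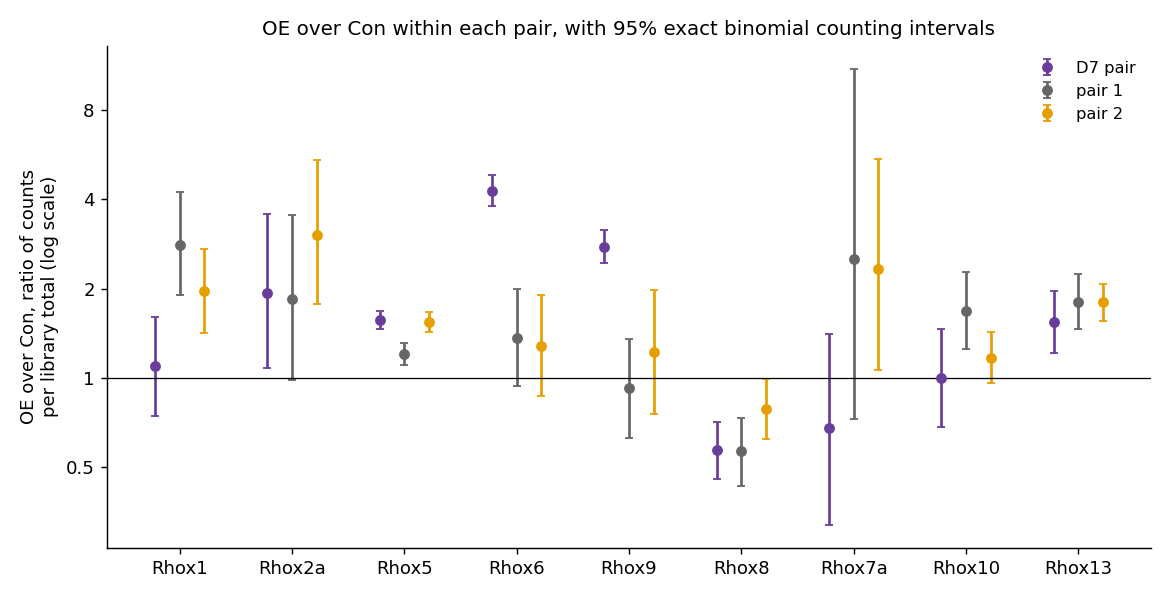
Ratio of OE to Con counts per library total (vertical axis, log scale) for 9 members in each of the 3 pairs, with 95% exact binomial counting intervals. Rhox8 lies below 1 in all 3 pairs, and Rhox6 and Rhox9 reach 4.28 and 2.77 in the D7 pair only, with intervals that do not meet those of the other pairs.

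Over all 6 libraries with D7 as a covariate, no member passed, and with the block 1 gene of 13809 did (0.00724%), which was not a member. DESeq2 called 7 genes, 1 of them Rhox4a, and DESeq2 with the block called 69 genes, among them Rhox4a and Rhox5. Rhox4a was listed at 0 in all 3 Con libraries. Its mean over libraries 1 and 2 was 0.43 FPKM, below the filter of 0.5 FPKM. It thus entered this comparison only through OE-D7, an OE library in which it was high. It stood at 0.91 and 0.80 FPKM in OE libraries 1 and 2 and 4.37 FPKM in OE-D7, which is 11.1, 9.46 and 57.4 counts. Against a floor of 3 counts in the Con library of the same pair, Rhox4a was 3.71-fold, 3.05-fold and 19.4-fold higher in OE. The lower bounds of the counting intervals for Rhox4a were 2.54, 2.00 and 15.3 in pairs 1, 2 and D7. Its neighbour copy Rhox4a2, which shares 98.2%, ran the other way in pair 1, with 0 FPKM in OE and 0.43 FPKM in Con. In Con-D7, where Rhox4a was at 0, Rhox4a2 had 19.6 counts. How reads were divided between these copies was not tested. Summed Rhox4 copies, 24, 17 and 346 counts in OE libraries 1, 2 and D7, against 6, 11 and 113 in the Con libraries, had a log2 fold change of 1.48 (SE 0.261, adjusted p = 0.179 with the block).

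The second question was how the D7 libraries differed from libraries 1 and 2. The members did not move as 1 group. The summed Rhox4 copies, Rhox6 and Rhox9 stood above all other libraries in both D7 libraries, Rhox10 stood below all of them without passing the test, and Rhox1, Rhox2a, Rhox5, Rhox7a and Rhox8 did not pass the test in either direction. With genotype in the model, 935 genes of 13809 were higher in the D7 libraries (6.77%) and 422 lower (3.06%). Among the 14 members fitted, 5 had a mean of at least 0.5 FPKM only because of the D7 libraries, Rhox4a, Rhox4a2, Rhox4b, Rhox4e and Rhox4g, and so were bound to be higher there. They are left out of the counts in the rest of this paragraph. Of the 9 members that reach this mean, the filter of the test, without the D7 libraries, 2 rose, Rhox6 and Rhox9, and 0 fell, against 5.42% higher and 3.15% lower over the 13400 genes that pass in the same way. The FPKM of both D7 libraries was above all other 4 for 2 of the 9 and below for 1, against 21.7% and 24.3% of those genes. The median log2 fold change was 0.35 over the 9 members and -0.05 over those genes. The D7 label and the third pair are the same 2 libraries, so that the label and the handling of that pair cannot be told apart.

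Rhox6 and Rhox9, formerly Psx1 and Psx2, are neighbours in the beta sub-cluster that are known from the placenta and from germ cells. Rhox6 stood at 99.3 FPKM in OE-D7 and 23.2 FPKM in Con-D7, against 4.58 and 4.23 FPKM in OE libraries 1 and 2 and 3.32 and 3.25 FPKM in Con libraries 1 and 2. Rhox9 stood at 59.2 FPKM in OE-D7 and 21.4 FPKM in Con-D7, against 3.52 and 2.69 FPKM in OE libraries 1 and 2 and 3.84 and 2.24 FPKM in Con libraries 1 and 2. For both genes each D7 library was above all 4 others, 22.6-fold above OE libraries 1 and 2 and 7.06-fold above Con libraries 1 and 2 for Rhox6, and 19.1-fold and 7.03-fold for Rhox9. Rhox6 rose by a log2 fold change of 3.74 (SE 0.389, adjusted p = 0.00807) and Rhox9 by 3.57 (SE 0.415, adjusted p = 0.0107). Together they made up 44.3% of the family's FPKM in OE-D7 and 25.6% in Con-D7, against 3.61% to 7.33% in libraries 1 and 2.

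The Rhox4 copies belong to the alpha sub-cluster and were first described as Ehox in differentiating ESCs. Rhox4e stood at 6.11 FPKM in OE-D7 and 3.52 FPKM in Con-D7, against 0.41 and 0 FPKM in OE libraries 1 and 2 and 0 FPKM in both Con libraries 1 and 2. Rhox4b stood at 4.36 FPKM in OE-D7 and 0.81 FPKM in Con-D7, and was listed at 0 in the other 4 libraries. Both were thus near or at 0 outside the D7 pair, and were tested only because of their level in it. Rhox4e had 139 counts in the 2 D7 libraries together, against 5 in the other 4, a ratio per library total of 56.4 with a 95% exact binomial counting interval of 23.6 to 177. It passed the test (adjusted p = 0.0224), but its fitted log2 fold change of 5.83 (SE 0.934) lay between 5.01 without Con-D7 and 9.05 without OE library 1. Rhox4b passed with an adjusted p of 0.0428, and against a floor of 3 counts per library it was at least 13.3-fold higher, since a fitted fold change of a gene at 0 depends on the fit's prior count.

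No other single Rhox4 copy passed, although DESeq2 and limma called Rhox4a2 higher (adjusted p = 0.0495 and 0.0489) and limma also Rhox4g (adjusted p = 0.0413). Rhox4a2 and Rhox4g too were tested only because of the D7 libraries, and so were bound to be higher there with any tool. Rhox4a2 stood at 3.69 FPKM in OE-D7 and 1.59 FPKM in Con-D7, against 0 and 0.38 FPKM in OE libraries 1 and 2 and 0.43 and 0.45 FPKM in Con libraries 1 and 2 (adjusted p = 0.0935). Rhox4g stood at 2.14 FPKM in OE-D7 and 0.80 FPKM in Con-D7, against 0.17 and 0 FPKM in OE libraries 1 and 2 and 0 and 0.24 FPKM in Con libraries 1 and 2 (adjusted p = 0.0704). In both, each D7 library was above the other 4. Rhox4c had 2.08 FPKM in OE-D7 and 0.36 FPKM in Con-D7 and was listed at 0 in the other 4, and Rhox4d had 1.00 FPKM in OE-D7 and 0 in Con-D7, against 0.35 and 0.14 FPKM in OE libraries 1 and 2 and 0 in Con libraries 1 and 2. Neither was high enough to test. Summed over the 8 copies, which avoids dividing shared reads, the level was 24.1 FPKM in OE-D7 and 7.41 FPKM in Con-D7, against 1.84 and 1.32 FPKM in OE libraries 1 and 2 and 0.43 and 0.69 FPKM in Con libraries 1 and 2. The summed row, whose mean was above 0.5 FPKM without the D7 libraries too, rose by 3.93 on the log2 scale (SE 0.308, adjusted p = 0.00469).

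Gamma stood lower in the D7 pair. Its summed level was 14.1 FPKM in OE-D7 and 10.6 FPKM in Con-D7, against 20.6 and 41.6 FPKM in OE libraries 1 and 2 and 11.8 and 28.2 FPKM in Con libraries 1 and 2, so that each D7 library was below both libraries of its own genotype. The ratio of the D7 mean to the mean of the other 4 was 0.481 for gamma, against 2.34 for alpha and 2.31 for beta, and 14.7 for the Rhox4 copies alone. Rhox10 had 4.53 FPKM in OE-D7 and 4.50 FPKM in Con-D7, below all 4 other libraries, with a log2 fold change of -1.35 (SE 0.470, adjusted p = 0.125), and DESeq2 called it lower (adjusted p = 0.0367). Rhox13, at 8.21 FPKM in OE-D7 and 5.31 FPKM in Con-D7, overlapped the other libraries and did not pass (-0.99, SE 0.424, adjusted p = 0.187). Rhox12, the third gene of this group, ran against both, with 21 counts in OE-D7 and 12 in Con-D7, against 0 and 1 in OE libraries 1 and 2 and 1 and 0 in Con libraries 1 and 2, and was too low to test.

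**Figure D3:**
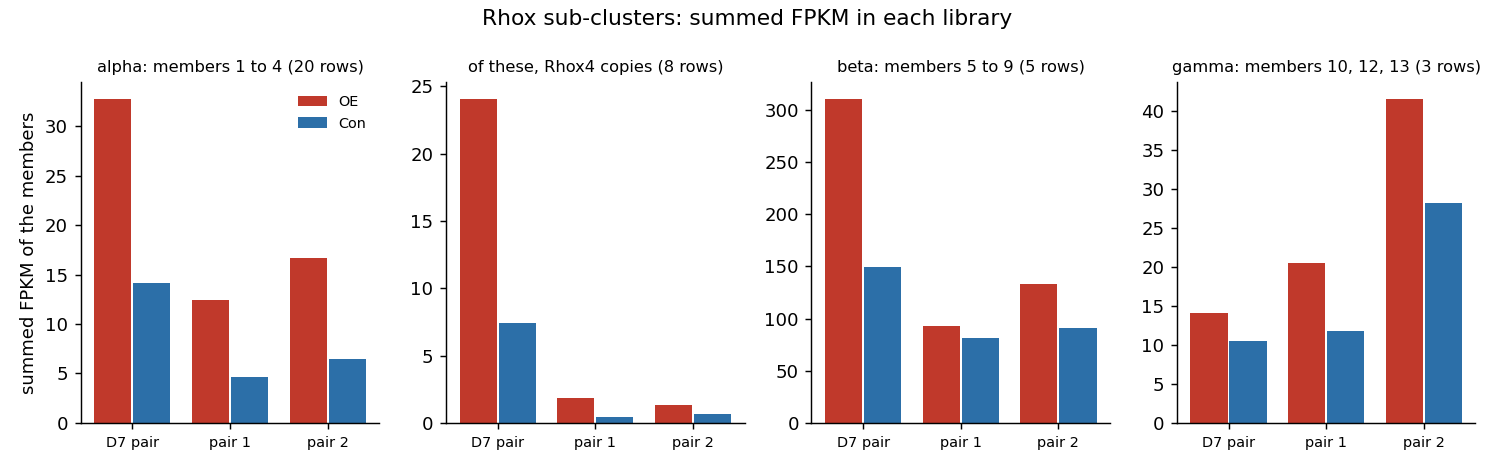
Summed FPKM (vertical axis, from 0, a scale for each panel) of the 3 sub-clusters and of the 8 Rhox4 copies within alpha, for OE (red) left of Con (blue) in each pair. Alpha and beta are highest in the D7 pair, at 32.8 and 311 FPKM in OE-D7, while gamma is highest in pair 2, at 41.6 FPKM in OE library 2.

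Rhox1, Rhox2a, Rhox5 and Rhox8 had log2 fold changes of -0.29, -0.10, 0.46 and 0.35 between the D7 libraries and the others, with adjusted p of 0.624, 0.876, 0.133 and 0.336. Rhox7a stood at 0.83 FPKM in OE-D7 and 1.23 FPKM in Con-D7, and its log2 fold change of 0.71 did not pass (adjusted p = 0.495). Leaving out a D7 library leaves 1 in that arm. Without OE-D7 no gene was called, with log2 fold changes of 2.80 for Rhox6 and 2.79 for Rhox9. Without Con-D7 the only member called was Rhox6, among 28 genes, and Rhox9 was at 4.25 (adjusted p = 0.0723). Without OE library 2 the members called were Rhox6 and Rhox9 among 365 genes. Without OE library 1 they were Rhox4e, Rhox6 and Rhox9 among 429, and without Con library 2 they were 6 among 2533. These counts are over all members fitted, the Rhox4 copies that were tested only because of the D7 libraries included.

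Markers of other cell types moved with the D7 libraries. The summed level of 10 trophectoderm markers was 1245 FPKM in OE-D7 and 697 FPKM in Con-D7, against 36.2 and 51.9 FPKM in OE libraries 1 and 2 and 29.9 and 59.7 FPKM in Con libraries 1 and 2. Of the 9 tested 6 rose, among them the keratins Krt8, Krt7 and Krt18 and the factor Gata3. Without the markers that pass the filter through the D7 libraries alone, 4 of 7 rose. The defining factors Cdx2, which rose as well, and Elf5 stayed at 1.49 and 0.66 FPKM or less. The 10 fibroblast or feeder markers summed to 190 FPKM in OE-D7 and 76.9 FPKM in Con-D7, against 33.7 to 61.6 FPKM in the other 4. Of 8 tested 5 rose, or 1 of 4 without those that pass through the D7 libraries alone, the collagen Col1a1. Dcn and Lum stayed at 0.21 FPKM or less. Thy1, which made up most of the sum in the other 4 libraries, ran the other way without passing. It stood at 20.97 FPKM in OE-D7 and 22.95 FPKM in Con-D7, against 30.84 to 52.99 FPKM in the others. Of 7 primitive endoderm markers tested 3 rose and 1 fell. Of 8 ESC markers 3 fell and 0 rose, and among those that fell was Pou5f1, at 312 FPKM in OE-D7 and 384 FPKM in Con-D7, against 575 to 683 FPKM in the others. The ESC marker Dppa5a ran the other way without passing, at 2268 and 2083 FPKM in OE-D7 and Con-D7, against 1238 to 1701 FPKM in the others. Nanog, with a log2 fold change of -0.18, did not pass. Of 10 genes of the 2-cell embryo 6 rose. The part of these cells in the rise of Rhox4 copies, Rhox6 and Rhox9 was not tested.

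Between the D7 pair and libraries 1 and 2 the effect of OE itself was also compared. Without the block no gene passed, and 69 genes were under an unadjusted p of 0.05. With the block 129 genes had a larger OE effect in the D7 pair (0.934%) and 70 a smaller one (0.507%), with 2 of the 14 members among the first, Rhox6 and Rhox9, both of which pass the filter without the D7 libraries. The D7 pair is 1 OE and 1 Con library, so that the spread in this fit comes from the other 4 libraries with 1 residual degree of freedom. The ratio of OE to Con counts of Rhox6 was 4.28 in the D7 pair (counting interval 3.81 to 4.83), against 1.37 in pair 1 and 1.28 in pair 2. For Rhox9 it was 2.77 (2.44 to 3.16), against 0.926 and 1.22. The difference on the log2 scale was 1.72 for Rhox6 (SE 0.273, adjusted p = 0.000942) and 1.43 for Rhox9 (SE 0.312, adjusted p = 0.0164), and neither was called without the block (adjusted p = 1) or by DESeq2 or limma with it. The adjusted p of Rhox6 was 0.122 by DESeq2 and 0.311 by limma, and that of Rhox9 0.365 by limma. Of the 9 trophectoderm markers tested 4 passed the same blocked comparison, and the summed level of the list was 1245 FPKM in OE-D7 and 697 FPKM in Con-D7. The part of that list in the difference was not tested. The OE effect on Dppa3 itself was smaller in the D7 pair in the same fit, with a difference of -3.46. The summed Rhox4 copies, with a D7 pair ratio of 3.25 by FPKM and 4.28 and 1.91 in pairs 1 and 2, did not differ beyond the error (0.39, SE 0.563, adjusted p = 0.886).

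Libraries of number 2 and number 1 also differed in this family. With genotype in the model, 3511 genes were higher in library 2 (26%) and 3425 lower (25.4%), and 3 of the 9 members rose, Rhox13, Rhox10 and Rhox5, with 0 lower. The log2 fold change was 1.03 for Rhox13 (adjusted p = 1.68e-05), 1.02 for Rhox10 (adjusted p = 0.000354) and 0.30 for Rhox5 (adjusted p = 0.0199). For Rhox13 the difference between the numbers was thus as large as that between OE and Con in the same 4 libraries, 0.81. Rhox5 lost its call with DESeq2 (adjusted p = 0.184), with limma (adjusted p = 0.0649) and with no filter (adjusted p = 0.0881). The share of members called lies near that of all genes.

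**Figure D4:**
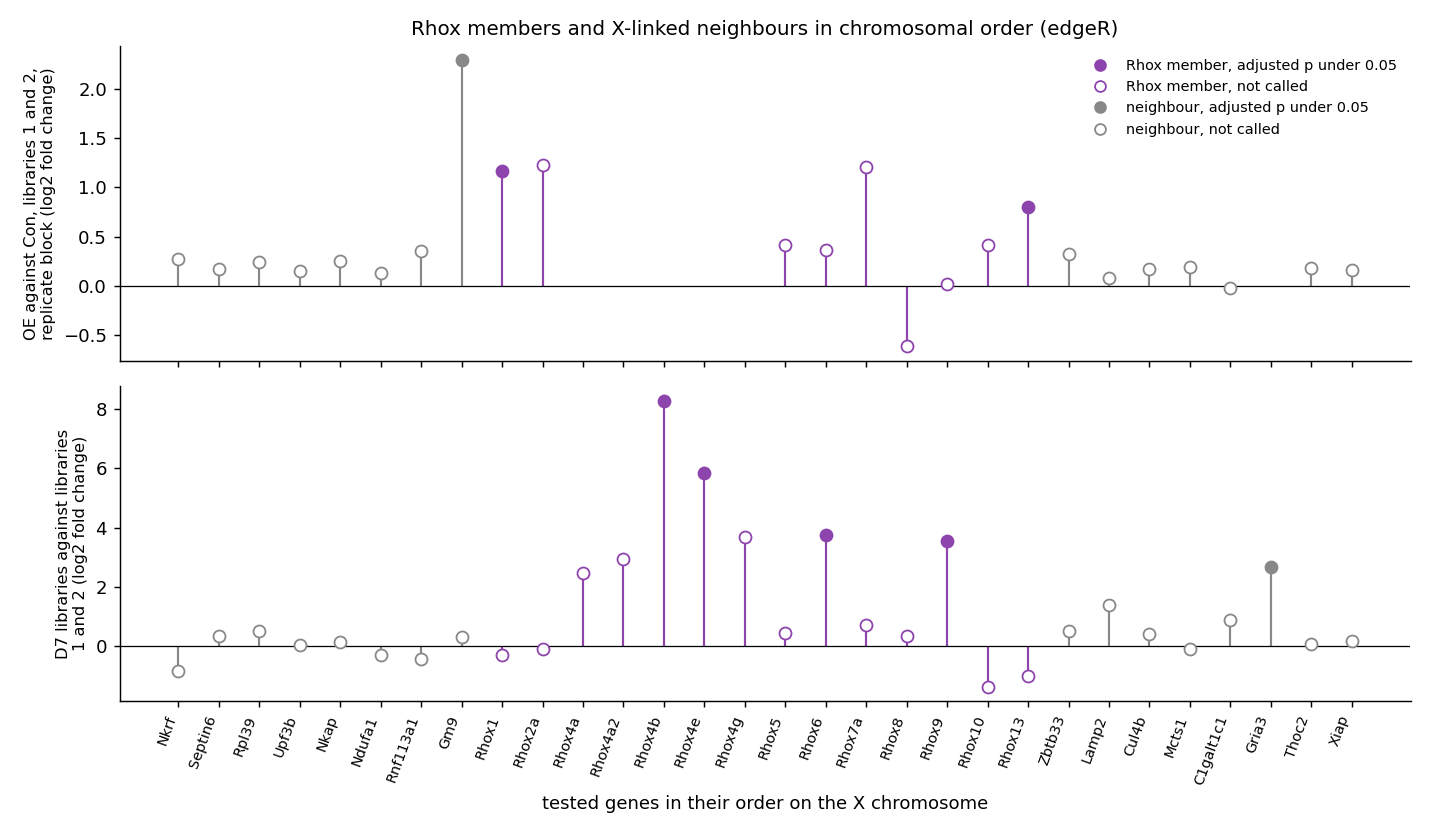
Log2 fold changes (vertical axes) of the Rhox members tested (purple) and of 16 X-linked neighbours (grey) in their order on the chromosome, for OE against Con in libraries 1 and 2 with the replicate block (top) and for the D7 libraries against libraries 1 and 2 (bottom), with filled points at an adjusted p under 0.05. In the lower panel Rhox4b, Rhox4e, Rhox6 and Rhox9 are filled with Rhox5 at 0.46 between them; the height of Rhox4b, which is at 0 outside the D7 pair, depends on the fit, and Rhox4b and Rhox4e were tested only because of the D7 libraries.

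The neighbours of the cluster give its edges. Of 8 tested genes on the proximal side, Gm9, the nearest to Rhox1, stood at 3.56 and 5.86 FPKM in OE libraries 1 and 2, against 0.60 and 1.29 FPKM in Con libraries 1 and 2. Both OE libraries were above both Con libraries, and Gm9 rose in the blocked fit by 2.29 on the log2 scale (adjusted p = 8.36e-05, and 1 without the block), a larger value than that of any Rhox member tested there. The other 7 on that side and the 7 tested on the distal side did not pass. The median log2 fold change was 0.25 over the proximal side and 0.17 over the distal side. In the D7 libraries no proximal neighbour passed and on the distal side 1 of 8 did, Gria3, an AMPA receptor subunit (2.67, adjusted p = 0.0159), which was tested only because of its level in them. Over the 513 other X-linked genes tested with all 6 libraries the median log2 fold change for D7 was 0.07. Of these genes 49 were higher (9.55%) and 14 lower (2.73%), against 6.77% and 3.06% of all genes tested.

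Genes that act on DNA methylation or chromatin silencing were examined as a list of 20. It holds the DNA methyltransferases and Uhrf1, the H3K9 methyltransferases and Trim28, the linker histones, and the Tet dioxygenases, which work against methylation. Of these 16 were tested, and between OE and Con in libraries 1 and 2 none passed with the block, with a median log2 fold change of -0.04 beside 0.00 over all genes. In the D7 libraries Dnmt3a, a de novo methyltransferase, rose by 0.69 (adjusted p = 0.0242), and Dnmt3l, its cofactor, fell by 1.2 (adjusted p = 0.0112). Tet1 fell by 1.40 (adjusted p = 0.00819) and Tet2 by 1.30 (adjusted p = 0.0205), both enzymes that oxidize methylated cytosine. Dnmt1 and Uhrf1, the maintenance pair, did not pass. Uhrf1 stood at 70.8 FPKM in OE-D7 and 88.0 FPKM in Con-D7, against 131 and 104 FPKM in OE libraries 1 and 2 and 137 and 109 FPKM in Con libraries 1 and 2. Methylation was not measured in these libraries. The study measured it in OE and Con ESCs by other assays, whose results were not used here.

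Of 5 known regulators of Rhox5 that were tested 1, the ETS factor Ets2, rose in the D7 libraries by 0.82 (adjusted p = 0.0424), while none passed between OE and Con. Unc5c, a netrin receptor repressed by Rhox5 in the testis, stood at 0.66 FPKM in OE-D7 and 0.26 FPKM in Con-D7 and at 0.01 FPKM or less in the others, too low to test. Of 10 germ cell markers, all tested, 2 rose in OE libraries 1 and 2 with the block and none in the D7 libraries. Of 8 Sertoli markers 2 were tested in libraries 1 and 2, and neither passed. Of 3 tested with all 6 libraries 1 rose in the D7 libraries, Wt1, which was tested only because of its level in them. Without it 0 of 2 rose. The 10 genes of the 2-cell embryo summed to 133 and 216 FPKM in OE libraries 1 and 2, against 95 and 140 FPKM in Con libraries 1 and 2, and 6 of them rose there with the block. Their part in the OE values of the Rhox members was not tested.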

How the data were processed

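RNA-seq of 3 OE and 3 Con libraries of mouse ESCs was analysed. The authors sequenced on BGISEQ-500, mapped reads to mm10 with Bowtie2 and deposited the estimated counts of RSEM per gene without scaling. FPKM values, scaled by the authors to length and depth, stood beside them in the deposited table. HISAT and GRCm38.p6 appear instead in the submitters' processing notes, and versions are not given in the sources used here. In the header the D7 counts are called averages, although their values resemble those of the other libraries. Strain labels differ for each library and were not used. Members, lists and tests were chosen with earlier results of these data known.

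Counts were rounded and tested with edgeR 4.0.16 in R 4.3.3 (TMM, quasi-likelihood F test), on genes whose FPKM averaged 0.5 or more in the fitted libraries (13494 genes with 4 libraries, 13809 with 6). The threshold was an adjusted p of 0.05 (Benjamini-Hochberg over all genes tested), and the standard error (SE) was taken from the log2 fold change and the F statistic. OE was compared with Con over libraries 1 and 2 and over all 6 with D7 as a term. D7 was compared with genotype as a term, and the interaction and the library number were tested as well. Deviations from the genotype means correlated at 0.871, 0.745 and 0.881 between libraries of the same number (12565 genes), which was taken to pair them, and at -0.025 or below otherwise. The deviations of a gene sum to 0 within each genotype, which draws the values for libraries of different number below 0. No source states a shared handling. The blocked value is given where it changes a call. Within single pairs, count ratios have 95% exact binomial intervals that cover counting error only. A count of 0 was set against a floor of 3 counts per library.

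Members with at least 1 FPKM in 1 library were named with every library, the others by ranges. From other lists, at most 4 genes called by a test were named as such. They were not always those of smallest p, and for some lists no such gene was named. The other markers named beside them were chosen after their values were seen. Dppa3 and the 8 nearest tested genes on each side were examined too. Alternatives were DESeq2 1.42.0, limma 3.58.1 on log2(FPKM + 0.5), other size factors, filters, pseudocounts, summed copies and leaving out each library. DESeq2 and limma with the block were added after seeing the data. The edgeR steps were tested on simulated data. Promoters came from the RefSeq table of GRCm38.p6.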

Additional observations from a re-analysis of the deposited data

Results flagged for a closer look

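The effect of OE was larger in the D7 pair than in libraries 1 and 2 for Rhox6, by 1.72 on the log2 scale, and for Rhox9, by 1.43, by edgeR's interaction term with the replicate block. Neither was called without the block (adjusted p = 1) or by DESeq2 or limma with it, and the D7 arm holds 1 library of each genotype, with the spread taken from the other 4. Rhox4a2 was higher in OE than in Con in the D7 pair, by 1.00 on the scale of log2(FPKM + 0.5), and lower in OE in pairs 1 and 2. Rhox7a was lower in OE than in Con in the D7 pair, at -0.38 on the same scale, and higher in OE in pairs 1 and 2. For these 2 genes the opposite directions were not tested, Rhox4a2 rests on 0 to 6.91 counts in libraries 1 and 2, and both share sequence with other copies.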

How the results depend on the processing

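Counts of calls depended on the block, the tool and single libraries, and directions changed for members that had not passed. For OE against Con in libraries 1 and 2, with no gene called, the replicate block gave 120 genes and 2 members, DESeq2 2 genes, and the block with DESeq2 34 and with limma 13 genes; leaving out 1 library gave 1 to 90 genes (90 without Con library 2) and no member. Over all 6 libraries DESeq2 called 7 genes and 1 member, the block 1 gene, the block with DESeq2 69 genes and 2 members, and the block with limma 1 gene. Rhox4a, which was tested there only because of OE-D7, is among the members called in both DESeq2 fits. For D7, DESeq2 called 2494 genes, and leaving out 1 library without the D7 label gave up to 2533 genes and up to 6 members. These were counted over all members fitted, the Rhox4 copies that were tested only because of the D7 libraries included. For the difference in OE effect the block gave 199 genes and 2 members, DESeq2 2 and the block with DESeq2 22 genes, with 0 to 8 on leaving out 1 library. For library 2 against 1 DESeq2 called 3601 genes and Rhox5 lost its call. Members at least 1.5-fold higher in OE by log2(FPKM + 0.5) were 8, 9 and 12 in pairs 1, 2 and D7, and 14 in pairs 1 and 2 with a pseudocount of 0.1 and 4 in pair 1 with 1. They include Rhox4d and Rhox4e in pair 1, each with 5 counts in OE and 0 in Con. The share of all rows past this cut-off was not computed, so these counts show only how far they depend on the pseudocount.

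Rhox9 was at -0.001 between OE and Con in libraries 1 and 2, and turned to 0.054 with limma, with or without the block, 0.005 with a mean of at least 1 FPKM, 0.023 with the block and 0.035 with the block and DESeq2. Leaving out 1 library moved Rhox9 between -0.376 and 0.512, Rhox13 between 0.193 and 1.412 and Rhox10 between -0.145 and 1.149. For D7 it moved Rhox1 between -0.803 and 0.221, Rhox2a between -0.246 and 0.151, Rhox7a between -0.174 and 1.579, Rhox6 between 2.798 and 4.525, Rhox9 between 2.789 and 4.254, and Rhox4e between 5.01 and 9.046. The values that changed direction did not pass the threshold, and the cause was not tested. With 1 library per genotype under the D7 label, and with single Rhox2 and Rhox4 copies at a few counts, depth and replication limit these results.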
